A study of Mus musculus with 20 samples.

Results

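The kidneys of 10 female Balb/c mice were compared, 5 from healthy control animals (F1, F10-1, F10-2, F30-6 and FNo5) and 5 from animals injected with doxorubicin (F3, F4, F5, F10-3 and F10-4). These 10 arrays were chosen by the sex and disease state given in their titles, out of 20 arrays in the series, and the other 10 are from males and are used where the responses of the sexes are set side by side. Mice of both sexes were about 10 weeks old. The injected animals received 12 mg/kg doxorubicin intravenously and were killed on day 14. Whether control animals received a vehicle is not given in the sources used here. Total RNA of each whole kidney was hybridized to 1 Affymetrix M430A 2.0 array, and every value below is a log2 GCRMA intensity unless another unit is named. In whole kidney RNA, fewer cells of a type and less RNA per cell cannot be told apart.

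Doxorubicin inserts into DNA and poisons topoisomerase II. In Balb/c mice it injures podocytes, the cells whose foot processes hold back protein in the glomerulus, and the leak of protein is followed by scarring of glomeruli and damage to tubules.

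The labels held in every female array. Xist, the RNA that silences one X chromosome, lay at 12.29 or above in its brightest probe set. The Y-linked genes Eif2s3y, Kdm5d and Uty lay at 2.91 or below, and 95% of their values in females were under 2.84, which is used as the array background. Umod, made in the thick ascending limb, measured 15.01 in control and 15.10 in doxorubicin kidneys. FNo5 stood apart from its group: 2572 of its probe sets lay more than 1 from the group median, against 199 to 987 in the other 9 females. Among the male arrays, which enter the same fit, doxorubicin male M30-4 stood farthest from its group, with 2984 such probe sets. Degradation of the RNA, read as the 3′ minus 5′ signal of Gapdh, was 0.60 ± 0.66 in controls and 0.68 ± 0.24 after doxorubicin (SD, n = 5), and the same measure of Actb was 2.25 ± 0.80 in controls and 2.73 ± 0.42 after the drug. In two-sided exact permutation tests of these differences p was 0.825 for Gapdh and 0.262 for Actb (adjusted over both, 0.825 and 0.524), where 5 against 5 animals cannot go below 0.00794. The Actb value was lowest in FNo5, at 1.11, and highest in F10-1, at 3.23.

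The transcripts that passed the reported test in female kidneys were few, a number that depended strongly on the settings, and all but 1 fell. Of 22626 probe sets, 1 was higher (0.00442%) and 8 were lower (0.0354%) after doxorubicin at an adjusted p under 0.04 in limma. The group that fell held Ddx6 and Ago2, both of the machinery that silences and degrades messenger RNA, and Pcyt1a, Zbtb20, Add3, Slc25a44 and Ankrd33b. The single probe set that rose was of Zfp277. The eighth fallen probe set has no gene named here. Single arrays moved these counts: 1 was lower without F1, F10-2, F3, F10-3 or F10-4, 3 to 5 without male M30-1, M30-2, M30-5, M7 or M9, and 16, 17 and 20 without F10-1, F4 and M30-4. The higher count was 0 without F1, F10-2, F30-6, F10-3 or F10-4 or male M30-1, M13, M30-2, M30-5, M30-3, M7 or M9, and 2 to 12 without F10-1, FNo5, F5, M11 or M30-4. At an unadjusted p under 0.05 there were 1071 probe sets (4.73%), 498 higher and 573 lower. Other settings raised the counts: array weights gave 39 higher and 99 lower, and a block for the series of animal numbers gave 28 and 126, or 38 and 193 with FNo5 placed among the numbers without prefix. The labels do not say what the prefixes mean. Among females, the prefixes of F30-6 and FNo5 occur in controls alone. F1 is the only control without a prefix, against F3, F4 and F5 among the injected. Series and drug therefore cannot be fully told apart. The calls rest on the spread of all 4 groups: a fit of the 10 female arrays alone called 0 probe sets, with a smallest adjusted p of 0.0881 and 1343 probe sets at an unadjusted p under 0.05, and the methods' t-test called 0 after Benjamini-Hochberg adjustment, with 125 higher and 221 lower at an unadjusted p under 0.01.

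**Figure D1:**
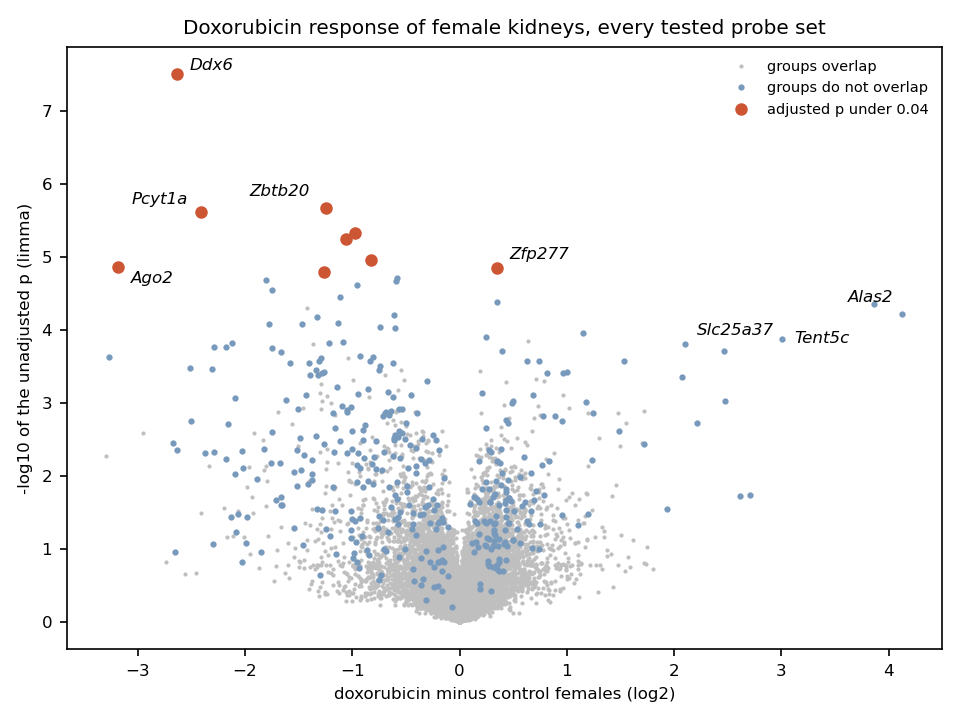
Each of the 22626 probe sets is placed by its difference between doxorubicin and control females (x axis, log2) and by −log10 of its unadjusted limma p (y axis). Red marks the 9 called probe sets, with Ddx6 at −2.63 far above the others, and blue marks the 379 probe sets whose female groups do not overlap, among which Alas2 reaches 4.13 without passing.

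Ddx6, a helicase of the cytoplasmic bodies in which messenger RNA is decapped and stored, had the smallest p of all probe sets. In probe set 1439122_at the control females F1, F10-1, F10-2, F30-6 and FNo5 measured 8.98, 7.76, 8.66, 8.93 and 9.11. The doxorubicin females F3, F4, F5, F10-3 and F10-4 measured 6.18, 6.61, 6.31, 6.04 and 5.14. The groups are separated by a gap that runs from the highest injected animal, F4, to the lowest control, F10-1. The mean fell from 8.69 ± 0.54 to 6.06 ± 0.55 (SD, n = 5), a difference of −2.63 (standard error 0.27, adjusted p = 0.000706) or 6.20-fold. The call stood in all 20 fits without 1 array, with differences between −2.86 and −2.40 and an adjusted p of 0.00476 at most. Between the 10- numbered animals alone, 2 against 2, the difference was −2.61. Their Actb values were 3.23 and 2.74 against 3.11 and 3.07, and their Gapdh values 1.64 and 0.76 against 0.91 and 0.74. With the Actb value as a covariate over all arrays the difference was −2.33 (adjusted p = 0.000518).

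The other probe sets of Ddx6 did not all move with it. The brightest, 1434697_at, measured 10.35 in controls and 10.40 after doxorubicin, a difference of 0.04 (standard error 0.16), with overlapping groups. A dimmer one, 1424598_at, measured 7.30, 3.37, 5.14, 6.53 and 10.15 in F1, F10-1, F10-2, F30-6 and FNo5 and 3.37, 4.77, 3.37, 2.20 and 2.29 in F3, F4, F5, F10-3 and F10-4, a difference of −3.29 (standard error 1.03, adjusted p = 0.473). In that probe set the control animals alone spanned nearly the whole range, with FNo5 highest and F10-1 level with F3 and F5.

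Ago2, the slicer of the microRNA silencing complex, had the largest fall among the called probe sets. Its only probe set, 1426366_at, measured 8.57, 7.15, 7.42, 8.13 and 9.59 in the control females F1, F10-1, F10-2, F30-6 and FNo5. After doxorubicin it measured 4.87, 5.24, 5.62, 5.15 and 4.09 in F3, F4, F5, F10-3 and F10-4. No injected animal reached the lowest control, and both low controls, F10-1 and F10-2, were those with the highest Actb 3′ minus 5′ values among controls. The mean fell from 8.17 ± 0.97 to 4.99 ± 0.57 (SD, n = 5), by 3.18 on the log2 scale (standard error 0.53, adjusted p = 0.0396) or 9.07-fold. The value lies just under the threshold: the call was kept in 5 of 20 fits without 1 array and was lost, with a largest adjusted p of 0.128, without control female F1, F10-2, F30-6 or FNo5, without doxorubicin female F3, F4, F10-3 or F10-4, and without control male M30-1, M13, M30-2 or M30-5 or doxorubicin male M7, M9 or M11. With the Actb value as a covariate the difference was −2.55 (adjusted p = 0.0408), and within the 10- numbered animals it was −2.67.

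Other genes of RNA silencing and decay did not pass. Of 30 such genes, each read from its brightest probe set, 1 was called (Ago2; of all 12393 genes read this way 2, or 0.0161%, were called lower and 1, or 0.00807%, higher), 21 had a higher and 9 a lower mean, and the median difference was 0.03 against 0.01 over all 12393 genes. Tnrc6b, a partner of the Argonaute proteins, differed by −0.59 (adjusted p = 0.70), and Cnot6l, a deadenylase, by −0.55, both with overlapping groups. By that reading Ddx6 counts among the genes with a higher mean, since its brightest probe set is not the one that fell.

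Pcyt1a, the enzyme that sets the rate of phosphatidylcholine synthesis, was called lower in 1 of its probe sets. Probe set 1421957_a_at measured 7.06, 6.59, 6.78, 7.11 and 8.41 in F1, F10-1, F10-2, F30-6 and FNo5, against 4.51, 5.18, 5.21, 4.84 and 4.13 in F3, F4, F5, F10-3 and F10-4. Without FNo5, which stood above the rest of its group, the controls still lay at 6.59 or more, above all injected animals. The mean fell from 7.19 ± 0.71 to 4.78 ± 0.46 (SD, n = 5), a difference of −2.41 (standard error 0.35, adjusted p = 0.0181) or 5.33-fold. A probe set of the same gene, 1450434_s_at, differed by −2.18 with groups that did not overlap (adjusted p = 0.105), while the brightest, 1438011_at, differed by 0.06 and 1424453_at by −0.06. The remaining genes of phospholipid synthesis stayed near 0, with a median of 0.05 and a range from −0.19 to 0.20 over 11 genes and 0 called. The call was kept in 15 of 20 fits without 1 array, and without F1, F10-2, F3, F10-3 or F10-4 the adjusted p was 0.0411 to 0.0855.

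Zbtb20, a zinc finger repressor of transcription, fell in the same manner. In probe set 1451577_at it measured 9.09, 8.79, 8.83, 8.79 and 9.09 in F1, F10-1, F10-2, F30-6 and FNo5, and 7.53, 8.28, 7.85, 7.54 and 7.17 in F3, F4, F5, F10-3 and F10-4. The control animals were within 0.30 of each other, and the injected animals were spread more widely, with F4 nearest to the controls. The mean fell from 8.92 ± 0.16 to 7.67 ± 0.42 (SD, n = 5), a difference of −1.24 (standard error 0.18, adjusted p = 0.0181). Probe set 1422064_a_at differed by −0.53 with groups that did not overlap (adjusted p = 0.354), and the brightest, 1438443_at, by −0.29 with groups that did. The call was lost without F1, F10-2, F3, F10-3 or F10-4 (adjusted p 0.0411 to 0.0855), and with the Actb covariate it was −1.14 (adjusted p = 0.0408). The study lists Zbtb20 and Zfp277 for this comparison on these same samples, so neither is independent of that choice.

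Add3, an adducin that ties spectrin to actin under the plasma membrane, fell from 10.01 ± 0.37 to 8.95 ± 0.28 (SD, n = 5) in probe set 1426574_a_at. The controls F1, F10-1, F10-2, F30-6 and FNo5 measured 10.43, 9.65, 9.83, 9.77 and 10.39, and F3, F4, F5, F10-3 and F10-4 measured 8.80, 8.99, 9.42, 8.75 and 8.80. The difference was −1.06 (standard error 0.16, adjusted p = 0.0259). Here F5 came nearest to the controls, and the other probe sets of the gene differed by −0.12 and −0.19 with overlapping groups. Slc25a44, a mitochondrial carrier of branched-chain amino acids, measured 8.47, 8.01, 8.49, 8.20 and 8.68 in the same order of controls and 7.40, 7.72, 7.32, 7.35 and 7.19 in the injected animals, a difference of −0.97 (standard error 0.15, adjusted p = 0.0259), and its brighter probe set differed by 0.21. Ankrd33b, an ankyrin repeat protein read from a single probe set, measured 9.61, 9.45, 9.60, 9.42 and 9.89 in controls and 8.67, 8.94, 8.90, 8.80 and 8.55 after doxorubicin, a difference of −0.82 (standard error 0.13, adjusted p = 0.0396). Add3, Slc25a44 and Ankrd33b showed no overlap between the groups, and FNo5 was the highest control in both of the latter. Their calls were kept in 10, 12 and 7 of 20 fits without 1 array, and each was lost without F1, F10-2, FNo5, F3, F10-3 or F10-4 and without control male M30-1 or M30-2. Add3 was lost besides without M30-5 or M7, and Ankrd33b without F30-6, M30-5, M7, M9 or M11.

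The probe set with no gene named here, 1456054_a_at, fell from 10.16 ± 0.32 to 8.90 ± 0.40 (SD, n = 5), a difference of −1.26 (standard error 0.21, adjusted p = 0.0397), and its call was kept in 6 of 20 fits without 1 array. It was lost without F1, F10-2, F30-6, FNo5, F3, F10-3 or F10-4 and without male M30-1, M13, M30-2, M30-5, M12, M7 or M9 (adjusted p 0.0481 to 0.128). Zfp277, a zinc finger protein, was the one that rose. It measured 9.51, 9.45, 9.32, 9.44 and 9.57 in F1, F10-1, F10-2, F30-6 and FNo5 and 9.80, 9.85, 9.74, 9.79 and 9.85 in F3, F4, F5, F10-3 and F10-4. Both groups were tight and apart. The difference was 0.35 (standard error 0.06, adjusted p = 0.0396), a 1.27-fold rise, kept in 5 of 20 fits without 1 array: it was lost without F1, F10-1, F10-2 or F30-6, without F3, F4, F10-3 or F10-4, and without male M30-1, M13, M30-2, M30-5, M30-3, M7 or M9.

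**Figure D2:**
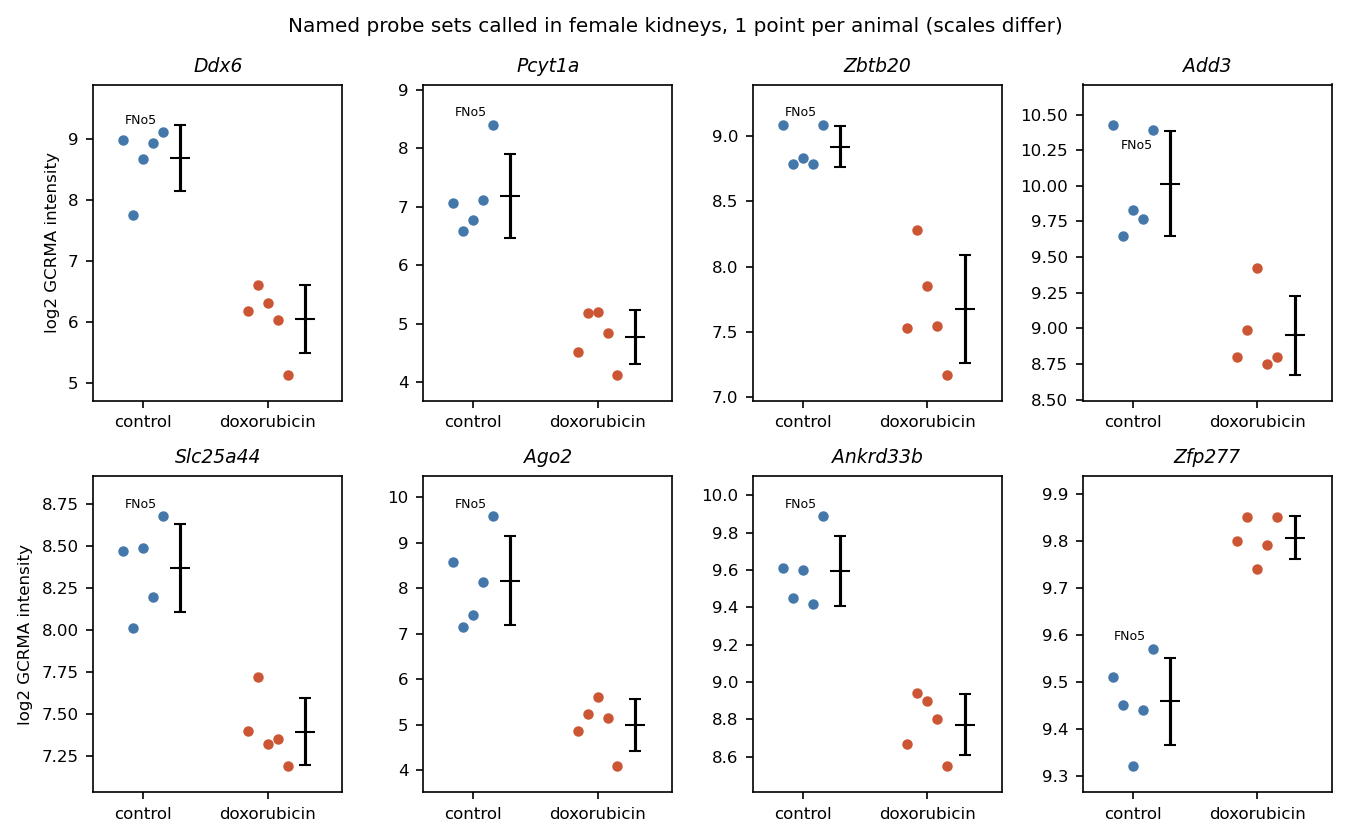
Each panel plots one called probe set with a named gene, 1 point per female (y axis, log2 GCRMA intensity; the scales differ between panels), with the mean and SD of 5 animals as a bar beside the points and control animal FNo5 marked. In all 8 panels the groups do not overlap, from Ddx6, with controls at 7.76 or above and injected animals at 6.61 or below, to Zfp277, where injected animals lie at 9.74 or above and controls at 9.57 or below.

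Just past the threshold stood 3 further falls with an adjusted p of 0.0402: Macroh2a1, a variant histone, with a difference of −0.58, Csnk2a1, the catalytic subunit of casein kinase 2, with −1.80, and Snx6, a retromer protein, with −0.59. Csnk2a1 and Snx6, and below Slc4a4, Wnk1, Kcnj15, Atrx, Ctcf, Srpk2, Tgs1, Scaf11 and Akap9, were chosen after their values were seen. Slc4a4, the sodium bicarbonate cotransporter of the proximal tubule, showed how the probe sets of a gene divided. In probe set 1426432_a_at it measured 11.88, 10.56, 11.11, 11.81 and 12.48 in F1, F10-1, F10-2, F30-6 and FNo5 and 9.81, 10.19, 10.15, 9.58 and 9.38 in F3, F4, F5, F10-3 and F10-4, with no overlap (difference −1.75, standard error 0.31, adjusted p = 0.0454). Probe set 1421225_a_at differed by −1.67, again with no overlap, but the brightest, 1452071_at, differed by −0.04 (standard error 0.40).

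A split between probe sets of one gene was common among the transcripts that were lower. In 242 probe sets (1.07%) every doxorubicin female lay below every control female, and in 137 (0.605%) every one lay above. Of the lower ones 101 differed by more than 2-fold, and of the higher ones 21. The lower probe sets with 1 named gene stood for 198 genes, of which 167 have further probe sets on the array. These 347 further probe sets had a median difference of −0.02, with 196 of them lower (56.5%, against 40.8% of all probe sets), where the 220 themselves had a median of −0.86. Among the higher ones, 121 further probe sets of 65 genes had a median of 0.10, with 91 of them higher (75.2%, against 59.2% of all probe sets), beside 0.42 for the 123 themselves. In 19 genes 2 or more probe sets were lower without overlap, and in 5 genes 2 or more were higher. The probe sets were sorted by this contrast, so their own medians are a description.

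**Figure D3:**
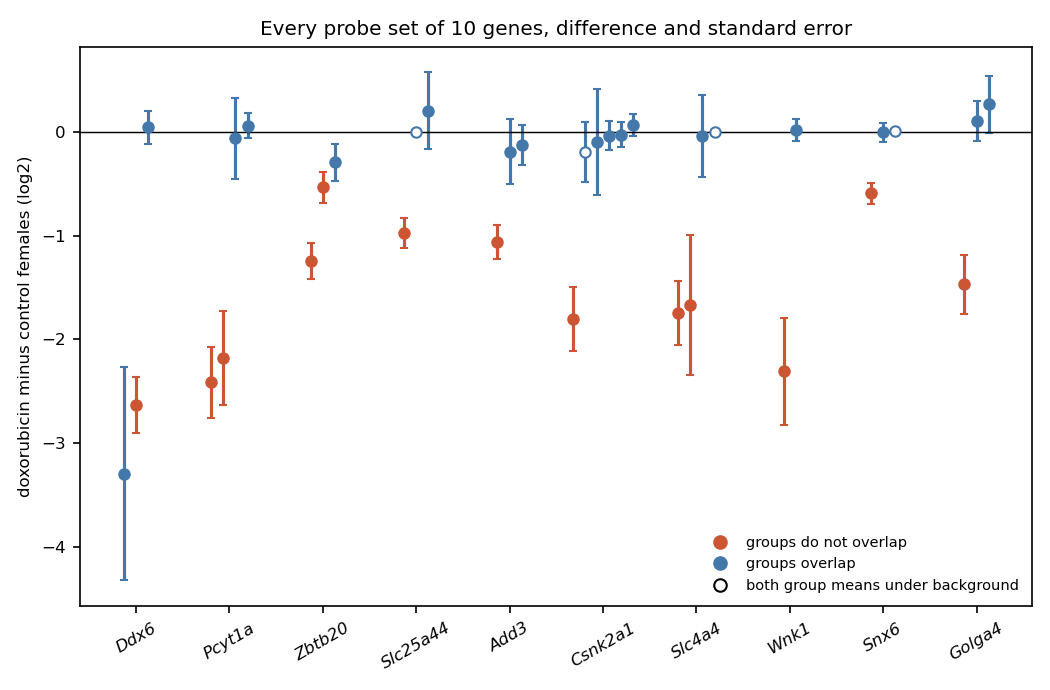
Every probe set of 10 genes is drawn at its difference between doxorubicin and control females (y axis, log2) with the standard error of the limma fit; red points have groups that do not overlap, blue points overlap, and open points lie under the array background in both groups. Each gene holds at least 1 red point between −0.53 and −2.63 and at least 1 blue point within 0.30 of 0. The 10 genes were picked by hand for this figure, so it does not show how common such a split is. The called genes Ago2 and Ankrd33b, with 1 probe set each, are not among them.

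Regulators of chromatin and transcription held several differences that did not pass. Of 23 such genes by their brightest probe set, 0 were called, 4 had groups that did not overlap, all lower, and the median was −0.01. By that reading 90 of 12393 genes (0.726%) were lower without overlap and 89 (0.718%) higher. The 4 were Macroh2a1, Gatad2b (−1.22, adjusted p = 0.10), a subunit of the NuRD complex, Rest (−1.29, adjusted p = 0.118), a repressor of neuronal genes, and Brd2 (−1.12, adjusted p = 0.392), a reader of acetylated histones. All 4 are on the study's own list for this comparison, which was made on these samples. Dimmer probe sets of Ctcf (−2.02), an insulator protein, and Atrx (−2.51), a chromatin remodeller, were lower without overlap, while the brightest of Ctcf differed by 0.19.

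Other genes chosen for the size of their difference divided in the same way, and none of them passed. Srpk2, a kinase of splicing factors, differed by −2.12 and −1.62 in a pair of probe sets and by 0.27 and 0.03 in the others. Tgs1, which hypermethylates RNA caps, differed by −2.29 in one and by 0.06 in its brightest. Scaf11, a splicing protein, and Akap9, a scaffold of the centrosome, differed by −2.67 and −2.63 in their lowest probe sets, with adjusted p of 0.405 and 0.439. Wnk1, a kinase that controls sodium chloride transport, differed by −2.31 in one probe set (9.86, 8.59, 8.97, 9.10 and 10.90 in F1, F10-1, F10-2, F30-6 and FNo5, and 7.55, 7.61, 7.32, 7.63 and 5.78 in F3, F4, F5, F10-3 and F10-4, adjusted p = 0.133) and by 0.02 in the other. Its low probe set had no overlap, with FNo5 highest and F10-4 lowest. Kcnj15, a potassium channel, differed by −1.82 (adjusted p = 0.433). It was the 1 of 17 genes of sodium and potassium transport whose groups did not overlap, where 0.726% of all genes were lower without overlap.

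The same animals stood at the ends of these lower probe sets. FNo5 was the highest control in 66.1% of the 242, against 32.1% of all probe sets, and F10-1 was the lowest control in 45.9%, against 13.4%. Among injected animals F10-4 was the lowest in 54.1%, against 12.3%, and F4 was the highest in 40.5%, against 11.7%. FNo5 and F10-1 are also the control females with the lowest and the highest Actb 3′ minus 5′ value. The median difference of the 242 was −0.89 over all animals, −0.74 without FNo5, −0.82 within the 10- numbered animals and −0.68 with the Actb value as a covariate. The 242 were chosen because the groups of these same animals do not overlap. The values without FNo5 and within the 10- numbered animals therefore had to be negative, and all 4 medians are a description. The part of RNA degradation in these differences was not tested beyond those values.

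In male kidneys, whose 10 animals are not among those that chose these probe sets, the 242 did not go the same way. The mean of doxorubicin males was lower in 70 of them (28.9%) and higher in 172 (71.1%), where 61.6% of all probe sets had a lower mean in doxorubicin males. Their median male difference was 0.11. The Actb 3′ minus 5′ value of the males ran from 1.42 (M13) to 1.89 (M30-3), below that of every female but FNo5. Whether this bears on the contrast between the sexes was not tested. Of the 137 higher in females, 71 had a higher mean in doxorubicin males (51.8%, against 38.4% of all probe sets), with a median of 0.01.

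The largest difference upward among 12393 genes, each read from its brightest probe set, was that of a red blood cell gene, and it did not pass. Alas2, which starts heme synthesis in red cell precursors, measured 4.89, 7.34, 7.49, 8.40 and 7.35 in F1, F10-1, F10-2, F30-6 and FNo5. In F3, F4, F5, F10-3 and F10-4 it measured 11.75, 11.22, 12.14, 9.82 and 11.18. Every injected female stood above every control, F10-3 being the nearest to them and F1 the lowest of all. The means were 7.10 ± 1.31 and 11.22 ± 0.88 (SD, n = 5), a difference of 4.13 (standard error 0.78, adjusted p = 0.0705) or 17.5-fold. The adjusted p was 0.00669 with the animal number series as a block, 0.149 with the Actb covariate and up to 0.190 without 1 array (F1), and it fell under 0.04 without doxorubicin male M30-4 or M11. Within the 10- numbered animals the difference was 3.08.

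The promoter of Alas2 is shown because this gene led the group. It lies at chrX:150547167-150547416 on the plus strand of GRCm38.p6, as given by RefSeq, and the 250 bases before the start site are printed 5′ to 3′, with capitals for the motif AGATAA, which GATA factors of red cell precursors recognise, here found on the opposite strand and beginning 86 bases before the start.
Alas2: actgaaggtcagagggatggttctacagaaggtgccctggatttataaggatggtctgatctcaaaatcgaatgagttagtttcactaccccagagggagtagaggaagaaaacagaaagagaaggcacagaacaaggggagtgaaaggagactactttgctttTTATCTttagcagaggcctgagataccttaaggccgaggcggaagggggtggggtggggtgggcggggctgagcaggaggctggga
On either strand, 3281 of 32851 promoters of this length (9.99%) hold AGATAA. Of 6 genes looked up (Alas2, Slc25a37, Tent5c, Bpgm, Fech and Hbb-b2) 3 had a promoter in the table, and of these Alas2 was the 1 with AGATAA, while 0 held CCACACCC, a motif of the red cell factor Klf1 found in 3.2% of promoters. These are matches of letters and not measured sites.

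Hbb-b2, a beta globin, measured 6.48, 8.99, 8.55, 8.99 and 8.19 in the controls F1, F10-1, F10-2, F30-6 and FNo5 and 9.71, 10.23, 11.37, 9.87 and 10.38 in F3, F4, F5, F10-3 and F10-4, a difference of 2.07 (adjusted p = 0.142). This probe set can also bind near-identical globin copies, and a dimmer one differed by −0.42. Bpgm, which makes the regulator of oxygen binding by hemoglobin, differed by 1.18 (adjusted p = 0.221), and Fech, which puts iron into heme, by 0.68 (adjusted p = 0.198). Fech was separated by a hair: F10-3 measured 11.59 and the highest control, F30-6, 11.58. Tent5c, a poly(A) polymerase, differed by 3.00 (7.75 ± 0.72 against 10.75 ± 0.55, SD, n = 5, adjusted p = 0.10), and Slc25a37, the mitochondrial iron importer of red cell precursors, by 2.10 (8.90 ± 0.31 against 11.00 ± 0.56, adjusted p = 0.10); both were chosen after their values were seen, and both had F10-3 as the lowest injected animal with no overlap. Their adjusted p was 0.0141 and 0.0190 with the animal number series as a block, 0.00463 and 0.00407 with array weights and 0.0176 for both without doxorubicin male M30-4.

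As a list, 15 red blood cell genes included 14 with a higher mean in doxorubicin females, 4 without overlap (Alas2, Hbb-b2, Fech and Bpgm; 0.718% of all genes were higher without overlap) and 0 called, with a median difference of 0.04. In 8 of the 15 both female group means lay under the array background. Among them were Klf1, Gata1, Tal1 and Rhag, the factors and the membrane protein of red cell precursors, whose means were at 2.60 or below in both groups. The log2 of the summed intensity of the list ran from 12.17 to 12.64 in controls and from 13.09 to 14.07 after doxorubicin. For heme synthesis, 2 of 8 genes were apart and higher (0.718% of all genes), the same Alas2 and Fech, and the others ran from −0.16 (Cpox) to 0.35 (Ppox). The part of a different content of red cells in these values was not tested.

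**Figure D4:**
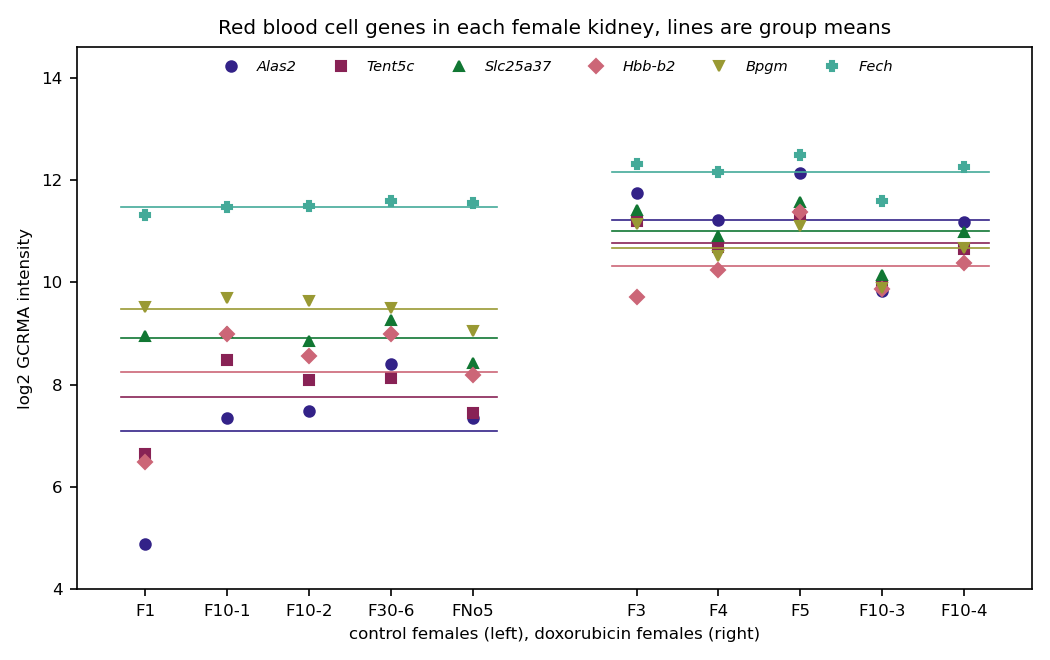
Log2 GCRMA intensity (y axis) of 6 red blood cell genes is shown for each control female (left) and doxorubicin female (right), with horizontal lines at the means of 5 animals. They are the 4 members without overlap of the list of 15, with Tent5c and Slc25a37, both chosen after their values were seen. The median difference of the whole list was 0.04. Alas2 runs from 4.89 in F1 to 8.40 in F30-6 among controls and from 9.82 in F10-3 to 12.14 in F5 after doxorubicin, and the other genes are lowest of the injected animals in F10-3 except Hbb-b2, which is lowest in F3.

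Further genes were higher without overlap and did not pass, the following chosen after their values were seen apart from Rsad2, Ube2c and Aldh1a1. S100a9 and S100a8, the calprotectin subunits of neutrophils, lay close to the array background in controls, at 2.89 to 3.15 and 2.83 to 2.94. S100a9 measured 5.11, 5.13, 3.35, 11.14 and 3.93 in F3, F4, F5, F10-3 and F10-4. Their differences of 2.71 and 2.62 (standard errors 1.03 and 1.01, adjusted p = 0.797 and 0.815) rested mostly on F10-3. The interferon-induced Rsad2 measured 9.50, 9.47, 9.24, 9.46 and 9.12 in the controls and 10.75, 10.40, 10.52, 9.59 and 10.35 in the injected animals, a difference of 0.97 (adjusted p = 0.133), beside 1.11 in males (adjusted p = 0.0686). Isg20 and Ube2l6, also induced by interferon, differed by 2.21 and 1.72 (adjusted p = 0.297 and 0.410). F10-3 was the lowest injected animal for all 3. Ube2c, a ubiquitin enzyme of mitosis, measured 2.53 to 3.55 in controls and 4.36 to 5.25 after doxorubicin (adjusted p = 0.915), and Aldh1a1, a retinaldehyde dehydrogenase on the study's list, 6.19 to 7.62 and 8.23 to 8.50 (adjusted p = 0.494).

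The cells of the glomerulus showed small differences. Of 18 podocyte genes 0 were called and 0 were without overlap, 12 had a lower mean in doxorubicin females, and the median was −0.23, beside 0.34 in males. Podxl, the charged coat protein of podocytes, measured 12.01, 11.53, 11.40, 12.14 and 11.14 in F1, F10-1, F10-2, F30-6 and FNo5 and 11.07, 10.74, 11.51, 11.40 and 11.43 in F3, F4, F5, F10-3 and F10-4, a difference of −0.41 with overlapping groups, and Npnt, a matrix protein of the glomerular basement membrane, differed by −0.28. Of 20 endothelial genes 0 were called, 13 had a lower mean, and the median was −0.15 (0.36 in males). The VEGF receptor Kdr measured 9.36, 8.89, 8.63, 8.86 and 9.58 in controls and 8.03, 8.29, 8.53, 8.37 and 7.93 after doxorubicin, a difference of −0.84 without overlap (standard error 0.18, adjusted p = 0.118), and the other receptor, Flt1, differed by −0.60 with overlap (adjusted p = 0.448). In males Kdr differed by 0.50, and the difference of the responses, −1.34, had an adjusted p of 0.139.

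Markers of tubules, each read from its brightest probe set, had medians near 0. Of 18 proximal tubule genes 0 were called and the median was −0.04, with Acsm2 at −0.31 and the sodium glucose cotransporter Slc5a2 at −0.33. A dimmer probe set of Acsm2, 1427223_a_at, differed by −0.82 without overlap (12.67, 12.50, 12.51, 12.68 and 14.20 in F1, F10-1, F10-2, F30-6 and FNo5, and 12.41, 11.66, 12.05, 12.15 and 12.21 in F3, F4, F5, F10-3 and F10-4, adjusted p = 0.519). The thick ascending limb and distal tubule had a median of −0.01 over 12 genes and the collecting duct 0.07 over 16. Of 20 genes of tubular injury 17 had a higher mean, 0 were called, 0 were without overlap, and the median was 0.15, beside 0.37 in males. Both female group means of 7 of these 20 genes lay under the array background. Within that list Cp, ceruloplasmin, differed by 0.54 in its brightest probe set, and of its other probe sets 1448734_at differed by 0.70 without overlap (adjusted p = 0.845) and 1455393_at by 1.18 with overlap (adjusted p = 0.787). Krt19, a keratin, measured 3.90 to 5.00 in controls and 4.87, 7.33, 4.07, 8.47 and 3.64 in F3, F4, F5, F10-3 and F10-4. Only F4 and F10-3 stood above all controls for Krt19.

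No member of the lists of p53 targets, interferon response, cell cycle, oxidative stress, unfolded protein response, heat shock or extracellular matrix was called. With 3 calls among 12393 genes read this way, an absence of calls says little about a list of this size. Among 22 p53 targets 19 had a higher mean, with a median of 0.11 (0.23 in males) and Phlda3, an inhibitor of Akt, at 1.15. Among 23 interferon genes 20 were higher, with a median of 0.18 (0.37 in males), but both female group means of 4 lay under the array background. Among 24 cell cycle genes 22 were higher, with a median of 0.23 (0.07 in males), but both female group means of 8 lay under that background. Extracellular matrix genes had a median of −0.04 over 23 genes, beside 0.53 in males, with Postn at 1.10 and Loxl1, a crosslinker of elastin, at −0.89. Of 15 genes of cholesterol synthesis 14 had a lower mean, with a median of −0.21 (−0.19 in males), and none was without overlap. Over all 12393 genes 36.6% had a lower mean. The remaining lists also had 0 calls, with medians of −0.02 for mesangial and smooth muscle cells, 0.22 for the circadian clock, 0.11 for fatty acid oxidation, 0.01 for complement and acute phase proteins, −0.01 for heat shock, −0.06 for the unfolded protein response and 0.00 for immediate early genes and the oxidative stress response.

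Markers of other tissues varied between animals more than between groups. The fat cell genes Car3 and Adipoq measured 12.96 and 10.10 in FNo5, 12.13 and 9.54 in F10-1 and 13.63 and 10.40 in F10-3, against 3.48 and 1.85 in F5. Over 12 fat cell genes 0 were called, and the log2 of their summed intensity ran from 12.28 to 14.01 in controls and from 12.27 to 14.99 after doxorubicin. For the ureter lining the sums ran from 5.77 to 7.79 and from 5.59 to 9.30 (6 genes, highest in F4), and for macrophages and other leukocytes from 13.02 to 13.28 and from 12.97 to 14.12 (24 genes, highest in F10-3). Both female group means lay under the array background for 7 of 9 adrenal genes and 11 of 12 skeletal muscle genes. The part of these tissues in the other results was not tested.

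**Figure D5:**
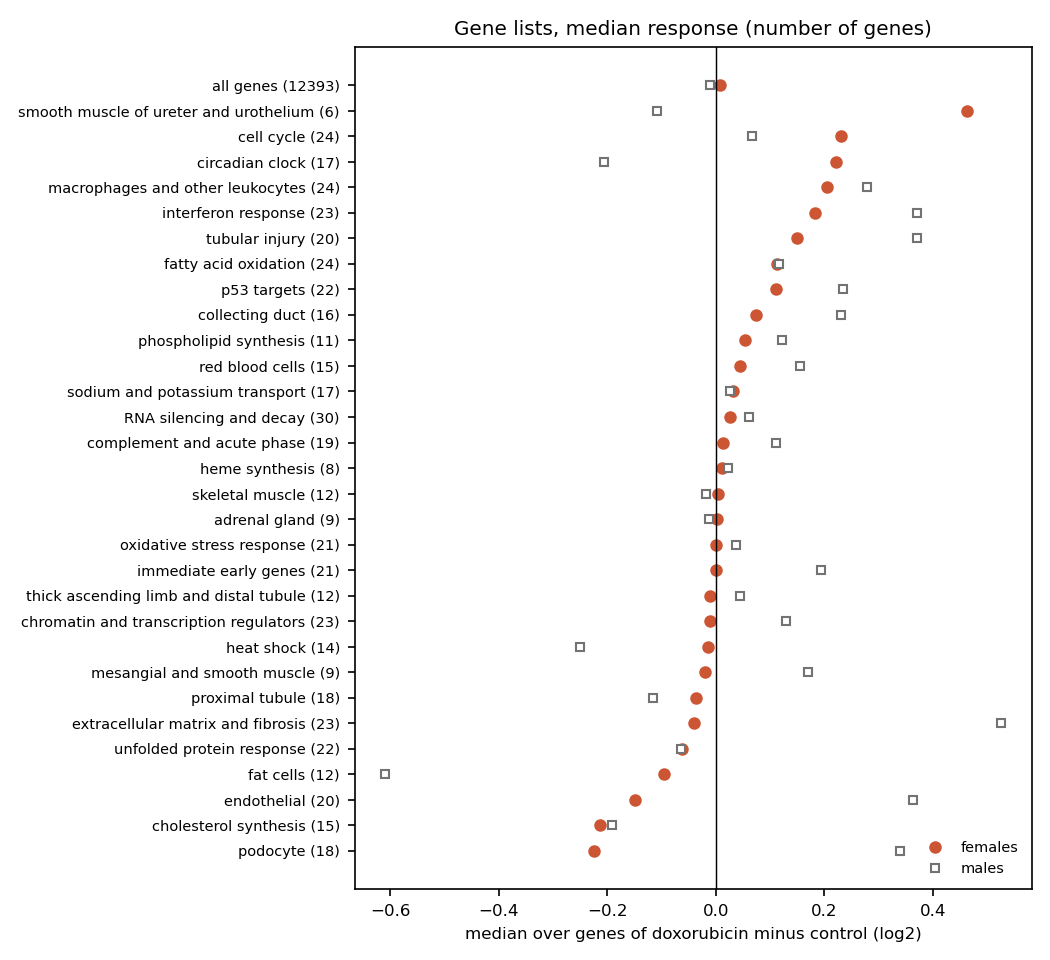
For each gene list (y axis, number of genes in brackets) the median over its genes of the difference between doxorubicin and control kidneys is plotted (x axis, log2), filled for females and open for males. Podocyte genes lie at −0.23 in females and 0.34 in males, extracellular matrix genes at −0.04 and 0.53, and red blood cell genes, of which 8 of 15 are under background, at 0.04 and 0.16.

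The study's own list for this comparison was made on these samples, so it is no independent evidence. Of its genes with a symbol, 18 were found here by name, and in all 18 the probe set with the smallest p had groups that did not overlap, 16 lower and 2 higher (Zfp277 and Aldh1a1). Only Zfp277 and Zbtb20 passed. The 16 lower ones ran from −1.54 (Zfp292, a zinc finger protein) to −0.40 (St3gal3, a sialyltransferase), with a median of −0.93. Their 31 further probe sets had a median of −0.03, and 5 of them were lower without overlap. Dag1, dystroglycan, which links podocytes and tubule cells to laminin, was lower without overlap in 3 of its probe sets (−0.74, −0.74 and −0.48) and differed by 0.00 in the brightest. Golga4, a Golgi tether, differed by −1.47 in one probe set and by 0.27 and 0.11 in the others.

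Whether females and males responded differently was tested as an interaction, which 1 of 22626 probe sets passed at an adjusted p under 0.05 (0.00442%). This was Slco1a1, an organic anion transporter that male hormones maintain in the kidney. In females probe set 1449844_at lay at the array background in both groups, 2.28 ± 0.01 and 2.35 ± 0.14 (SD, n = 5), so no response could be measured there, and in males it fell from 10.78 ± 0.50 to 7.95 ± 0.72. The interaction term, which thus sets the male fall against no measurable level in females, was 2.90 (standard error 0.39, adjusted p = 0.0217). Its call was absent, with 0 probe sets called, without control male M30-1, M30-2 or M30-5, doxorubicin male M30-4, control female F1, F10-2, F30-6 or FNo5, or doxorubicin female F3, F5 or F10-3.

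For the genes that fell in females the interaction did not pass. Ddx6 in probe set 1439122_at measured 9.35, 8.90, 9.04, 8.71 and 8.99 in control males M30-1, M13, M30-2, M30-5 and M12 and 8.48, 8.75, 9.23, 9.34 and 8.76 in doxorubicin males M30-3, M30-4, M7, M9 and M11. All 10 males lay within the range of the control females or above it, and their groups overlapped. The male difference was −0.09, and the difference of the responses −2.55 (standard error 0.39, adjusted p = 0.0572). For Ago2 the male difference was 0.39 and that of the responses −3.58 (adjusted p = 0.180), for Pcyt1a −0.08 and −2.33 (adjusted p = 0.186), for Zbtb20 −0.21 and −1.03 (adjusted p = 0.309), and for Alas2 1.76 and 2.36 (adjusted p = 0.778). These values do not show that the sexes respond alike or unlike for those genes. The males also had a lower Actb 3′ minus 5′ value than every female but FNo5, and its part in these values was not tested.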

How the data were processed

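RNA of whole kidneys, extracted with Trizol and labelled by the one-cycle method, was hybridized animal by animal. GCRMA (version not given in the sources used here), applied by the authors, adjusts background and normalizes between arrays, and the deposited values are its linear intensities. They were converted to log2 with no pseudocount and no filter on low values. The table held 22690 probe sets. The 64 array controls were used for RNA quality alone, which left 22626, of which 20380 stand for 1 gene (12393 genes), 691 for more than 1 gene, and for 1555 no gene is named. Gene names are GEO's platform annotation, with 20351 probe sets updated through Entrez IDs.

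All 4 groups entered 1 model over 20 arrays in limma 3.58.1 (R 4.3.3). It had 16 residual degrees of freedom and a prior of 0.780. P-values were adjusted over 22626 probe sets by Benjamini-Hochberg, with thresholds of 0.04 for the response of females, the false discovery rate the study used, and 0.05 for the interaction. The study called genes for this comparison with SAM, which was not run here, so its calls and those given here come from different tests. Each array is 1 animal, and p-values measure the spread between these animals. The number of arrays limits the precision.

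The genes named in the text are the 4 given with the comparison (Ddx6, Ago2, Pcyt1a and Alas2), all called genes, every called member of each of 30 gene lists or otherwise up to 3 members with the smallest p, the genes of the study's table and those past the interaction, with all their probe sets. Others are said in the text to be chosen after their values were seen, and Bpgm, Cnot6l, Cpox, Gata1, Klf1, Rhag, Tal1 and Tnrc6b were chosen after their values were seen to describe their lists. A list reads each gene from its brightest probe set. The members and lists were chosen with earlier results of these data known. The alternatives were other samples, variance priors, array weights, scalings, filters, the animal number series as a block, RNA quality covariates and leaving out each array.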

Additional observations from a re-analysis of the deposited data

Results flagged for a closer look

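Over the probe sets of Ddx6, Ago2, Pcyt1a, Alas2 and the called genes, 42 groups of 5 values were tested for an outlying animal. In 4 of them 1 value lay apart by a gap of more than 0.71 of the group's range. Chance gives such a gap, for any of the 5 animals, in about 1 in 20 groups (5%). All 4 values were those of control female FNo5, which belongs to the control groups alone, so its share of those is larger than 4 of 42. In the brightest probe set of Ddx6 it measured 9.68, below the others, which lay between 10.42 and 10.62. In Pcyt1a it measured 8.41 in probe set 1421957_a_at (others 6.59 to 7.11) and 8.38 in 1450434_s_at (others 5.27 to 6.07), above the rest. In the brightest probe set of Zbtb20 it measured 10.55, below 11.18 to 11.27. The same animal had the lowest Actb 3′ minus 5′ value of the females, 1.11, and whether this bears on the values was not tested.

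For Slco1a1 (probe set 1449844_at) the interaction term of sex and drug was 2.90 (adjusted p = 0.0217). Female kidneys lay at the array background in both groups, so a female response could not be measured, and the term gives the fall in males against no measurable level in females.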

How the results depend on the processing

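The reported test called 1 probe set higher, 8 lower and 1 by the interaction. The higher and lower counts were 0 and 0 with the 10 female arrays alone, with the 4 female arrays of the 10- series and with the methods' t-test after Benjamini-Hochberg adjustment. They were 39 and 99 with array weights, 0 and 5 after quantile normalization, 1 and 14 with median centring, 2 and 19 in the upper 60% of probe sets by mean, 0 and 9 with a robust variance trend, 1 and 13 at an adjusted p under 0.05 and 125 and 221 with the t-test at p under 0.01. With the animal number series as a block they were 28 and 126, or 38 and 193 with FNo5 counted among the numbers without prefix. With the Gapdh signal as a covariate they were 3 and 26, and with Actb 0 and 5. Without FNo5 and M30-4 they were 8 and 12, and without FNo5 and F10-4, added after the data were seen, 0 and 1. Without 1 array, higher calls ran from 0 to 12 and lower calls from 1 (without F1, F10-2, F3, F10-3 or F10-4) to 20 (without M30-4).

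The interaction called 2 probe sets with the robust trend, after quantile normalization and with median centring, 3 in the upper 60%, 213 with array weights, 52 or 67 with the block, 16 with Gapdh and 4 with Actb. It called 0 without FNo5 and M30-4 or without FNo5 and F10-4, and 0 to 5 without 1 array. The Gapdh difference of 0.08 was −0.37 within the 10- series and ran from −0.10 (without FNo5) to 0.34 without 1 array, and that of Actb, 0.48, from 0.19 to 0.72. No paired analysis was run because the titles give no pairing of animals. The numbers of FNo5 and F5 differ only in the prefix No, and the labels do not say what it means. The 9 called probe sets kept their sign in every alternative that was run. In all 9 the female groups do not overlap, so leaving out arrays could not have changed the sign. Leaving out a male does not alter the female difference at all. The causes of these changes were not tested.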
